A study of Saccharomyces cerevisiae with 4 samples.

Results

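The 30 genes described here encode the transporters through which Saccharomyces cerevisiae exchanges nitrogen compounds with its surroundings, together with SSY1, the plasma membrane sensor of extracellular amino acids. They were taken by name as a functional group, and 30 of the 5449 S. cerevisiae genes read by the arrays belong to it. Each of the 30 was read by 1 probe set that is unique to the gene, and all 30 passed the filter on dim probe sets. The group is wider than its usual name: HNM1 carries choline, TPO5 acts in polyamine excretion from internal membranes, and AGP2 is best known as a regulator of carnitine and polyamine uptake.

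Messenger RNA was measured on 4 Affymetrix Yeast Genome 2.0 arrays, 2 of strain NBRC1950 and 2 of strain X2180, all from cells shaken in YPD, a rich medium of yeast extract, peptone and glucose, with no treatment named. Of NBRC1950 the labels give the name alone, with neither ploidy nor any allele. X2180 is a laboratory strain derived from S288C, the reference strain, and served the authors as the baseline. The duplicates were independent experiments, and no growth phase or cell density is given, so strain and culture state cannot be told apart. The study's title links ergosterol to tolerance of vanillin, and no sample is labelled as exposed to it.

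Amino acid permeases of yeast are proton symporters whose genes answer to several signals. Amino acids outside the cell are read by Ssy1, which with Ptr3 and Ssy5 releases the transcription factors Stp1 and Stp2, and these turn on permeases such as AGP1, BAP2, BAP3, TAT1 and the peptide transporter PTR2. Good nitrogen sources hold down another set, among them GAP1, PUT4, UGA4, DAL5 and the ammonium permeases, by keeping the GATA factors Gln3 and Gat1 inactive, which is called nitrogen catabolite repression. Permeases are further controlled by ubiquitylation and removal from the membrane, a level that arrays do not read.

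Of the 30 genes, 17 differed between the strains at an adjusted p under 0.05 in limma, 11 of them higher and 6 lower in NBRC1950. Over all 5335 genes tested, 47.2% differed by the same rule, 20.3% higher and 26.8% lower. The share called among the permeases (56.7%) lay near that background, so that being called is no mark of the group. The split by direction moved with the scaling: 23 permeases were called higher and 3 lower under scaling to all probe sets, where 92.8% of all called genes were higher, and 10 and 3 with no further scaling, where 70.5% were. The median difference was 0.04 on the log2 scale for the permeases and -0.05 for all genes, and the median size regardless of direction was 0.36 against 0.25. A called difference of at least 2-fold was found for 5 of the 30 permeases (TAT1, UGA4 and AGP2 lower, OPT2 and MEP1 higher), against 7.54% of all genes. That count also moved, to 11 (9 higher, 2 lower) under scaling to all probe sets, where 14.8% of all genes reached it. With no further scaling it was 8 (5 higher, 3 lower), against 7.87% of all genes. The arrays of the strains did not overlap for 20 of the 30, against 75.6% of all genes.

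**Figure D1:**
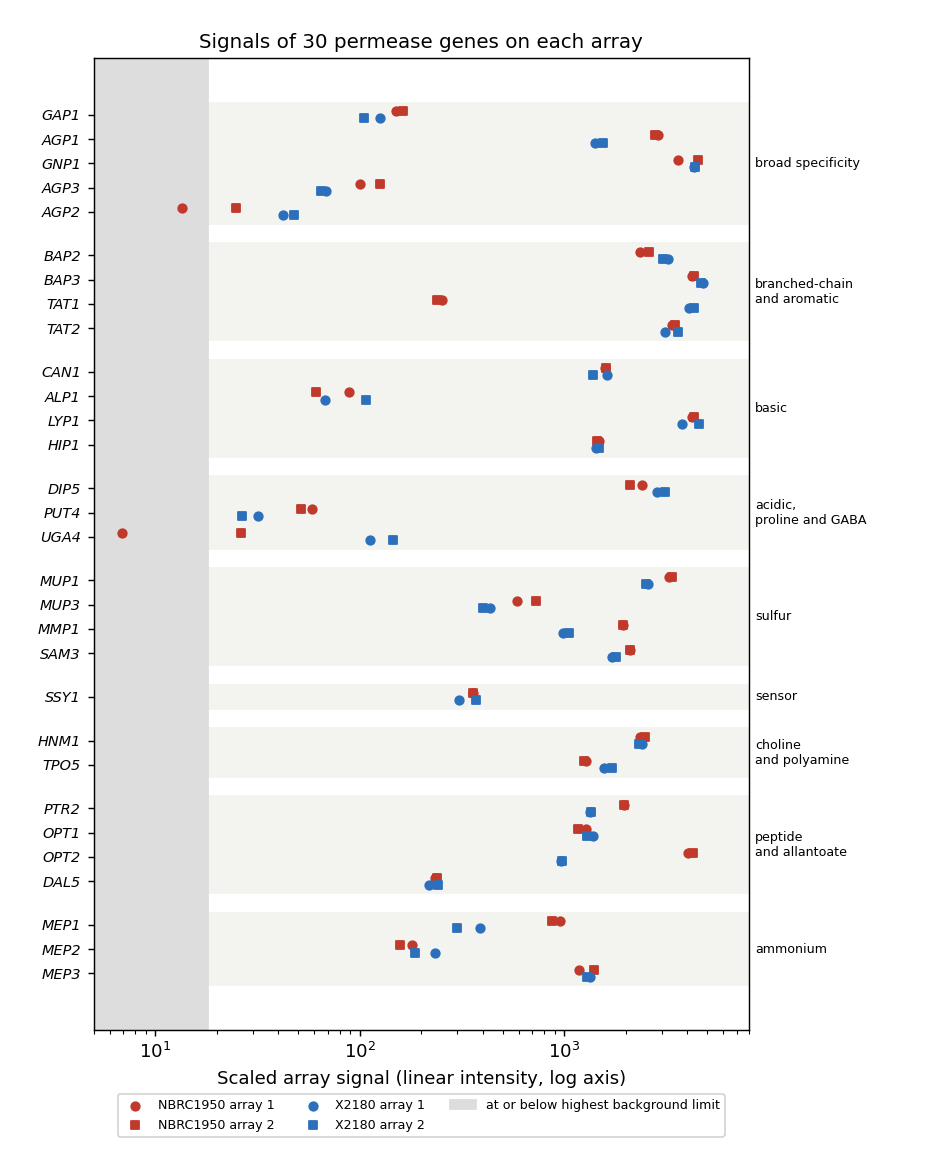
Scaled signal (x axis, linear intensity on a log axis) of each of the 30 genes on the 2 NBRC1950 arrays (red) and the 2 X2180 arrays (blue), grouped by substrate, with the grey band reaching to the highest of the 4 background limits (18.2). TAT1 stands at 253 and 239 in NBRC1950 and at 4095 and 4295 in X2180, OPT2 lies at 4027 and 4282 in NBRC1950 and at 961 and 973 in X2180, and UGA4 and AGP2 each have an NBRC1950 array within the band.

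Signals are intensities scaled so that the median S. cerevisiae probe set was 973.6 on each array, and the background limit of an array is the 90th percentile of its probe sets for other species or without a gene. That limit was 14.9 and 16.6 on the NBRC1950 arrays and 18.2 and 15.9 on the X2180 arrays. Before scaling, the median S. cerevisiae probe set gave 983 and 1171 on the NBRC1950 arrays and 894 and 964 on the X2180 arrays. Between 5261 and 5336 genes lay above the limit on each array. The small number of arrays limits the precision of every value. Probe sets differ in brightness for reasons other than transcript level, so signals are compared between strains and not between genes. A probe that mismatches the NBRC1950 sequence would also read lower there, and probes could not be masked for this. Scaling matters for small differences, because the median of all genes stood at 0.52 when arrays were scaled to all probe sets and at 0.16 with no further scaling.

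Among the permeases for branched-chain and aromatic amino acids, TAT1 was far lower in NBRC1950 and the other members differed little, although the scaling to all probe sets called those 3 higher. TAT1 encodes a permease for tyrosine, tryptophan and the branched-chain amino acids. Its signals were 253 and 239 in NBRC1950, against 4095 and 4295 in X2180. Every NBRC1950 array thus lay far below both X2180 arrays, yet well above its own background limit. The difference was -4.09 ± 0.08 (SE; limma adjusted p = 4.61e-08), a fold of 17.0, which ranked 44 from the lowest of all 5335 genes. It ranged from -4.13 to -4.05 with any 1 array left out, and from -4.09 to -3.52 over the 4 scalings.

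BAP2, a permease for leucine, isoleucine and valine, is the neighbour of TAT1 on chromosome II. It gave 2341 and 2596 in NBRC1950, against 3213 and 3059 in X2180. BAP2 was lower by limma, at -0.35 ± 0.07 (SE; adjusted p = 0.00743), but under scaling to all probe sets it was called in the opposite direction, at 0.22 (adjusted p = 0.0329). Leaving out X2180 replicate 1 (adjusted p = 0.0614) or NBRC1950 replicate 1 (0.0622) ended the call, as did omitting the scaling. BAP3, its close relative for the same substrates, was at -0.15 (95% interval -0.29 to -0.001; adjusted p = 0.0904), with 4222 and 4322 in NBRC1950 and 4754 and 4696 in X2180. TAT2, the high-affinity tryptophan permease, did not pass (0.03, interval -0.16 to 0.22), with signals of 3351 and 3501 in NBRC1950, against 3131 and 3596 in X2180. The arrays of the strains overlapped for TAT2 and stood apart, by little, for BAP3.

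Permeases of broad specificity moved in both directions: AGP1, AGP3 and GAP1 were higher, AGP2 was lower and GNP1 did not pass. AGP1, a permease for many neutral amino acids including asparagine and glutamine, gave 2890 and 2772 in NBRC1950, against 1421 and 1549 in X2180. Both NBRC1950 arrays stood well above both X2180 arrays. The difference was 0.93 ± 0.07 (SE; limma adjusted p = 5.89e-05). GNP1, the high-affinity glutamine permease and paralogue of AGP1, was at -0.10 (95% interval -0.35 to 0.14), with 3620 and 4540.0 in NBRC1950, against 4318 and 4386 in X2180. The NBRC1950 arrays of GNP1 lay on either side of the X2180 arrays.

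GAP1, the general amino acid permease that is strongly repressed by good nitrogen sources, gave 151 and 162 in NBRC1950, against 126 and 105 in X2180. At 0.45 ± 0.15 (SE; limma adjusted p = 0.0473) it lay at the threshold. Leaving out X2180 replicate 2 (adjusted p = 0.149), NBRC1950 replicate 1 (0.102) or NBRC1950 replicate 2 (0.197) ended the call, as did a block for replicate number (0.0549) and testing every probe set (0.0585). AGP3, a low-affinity permease that can supply amino acids as a nitrogen source, had 100.1 and 126 in NBRC1950, against 68.3 and 64.9 in X2180, a difference of 0.75 (adjusted p = 0.0123). That call was lost without X2180 replicate 1 (0.0554), X2180 replicate 2 (0.0675) or NBRC1950 replicate 2 (0.0916). AGP2 was dim in both strains, with 13.5 and 25.0 in NBRC1950, against 42.1 and 48.0 in X2180. One of its NBRC1950 arrays was not above background, and its difference of -1.29 ± 0.35 (SE; limma adjusted p = 0.0190) lost its call without X2180 replicate 1 (0.0852), X2180 replicate 2 (0.119) or NBRC1950 replicate 1 (0.0641), and after quantile normalization (-0.59, 0.197).

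None of the 4 permeases for basic amino acids passed the threshold in limma, which 47.2% of all genes did. At an unadjusted p under 0.05, 0 of the 4 passed there or in the methods' t-test. But CAN1, LYP1 and HIP1 were called higher under scaling to all probe sets, which put the median of all genes at 0.52. That scaling called 83.3% of all genes, 92.8% of those higher. CAN1, the arginine permease known as the target of the toxic analogue canavanine, gave 1581 and 1608 in NBRC1950, against 1613 and 1380.3 in X2180, a difference of 0.10 (95% interval -0.11 to 0.30). LYP1, the lysine permease, had 4243 and 4308 in NBRC1950, against 3762 and 4547 in X2180, and its difference of 0.05 had an interval of -0.17 to 0.27. HIP1, the histidine permease, had 1479 and 1444 in NBRC1950, against 1430.4 and 1483 in X2180, and its difference of 0.01 (interval -0.15 to 0.16) was the smallest of the 30. The arrays of the strains overlapped for each of the 4, while for 75.6% of all genes they did not. ALP1, a relative of CAN1 of low signal, had 89.1 and 60.9 in NBRC1950, against 68.0 and 107 in X2180, and its interval of -0.86 to 0.44 allows a change of some size in either direction. ALP1 and LYP1 lie close together on chromosome XIV, with BSC4, which was not tested, between them.

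The permeases for acidic amino acids, proline and GABA each differed, 1 higher and 2 lower. Over all genes 47.2% differed, 20.3% higher and 26.8% lower. UGA4 encodes the permease for GABA, the non-protein amino acid 4-aminobutyrate. Its signals were 6.88 and 26.4 in NBRC1950, against 113 and 146 in X2180. Both X2180 arrays were far above both NBRC1950 arrays, of which replicate 1 was not above background. The fitted difference was -3.25 ± 0.56 (SE; limma adjusted p = 0.00264), and its size rests on the dim arrays: it was -2.28 without NBRC1950 replicate 1 and -4.22 without NBRC1950 replicate 2. Leaving out X2180 replicate 1 (adjusted p = 0.0578) or X2180 replicate 2 (0.0733) ended the call.

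PUT4, the high-affinity proline permease, had 58.7 and 51.6 in NBRC1950, against 31.9 and 26.6 in X2180. These are dim signals whose strains did not overlap, and the difference of 0.92 ± 0.24 (SE; limma adjusted p = 0.0164) lost its call without NBRC1950 replicate 1 (0.0782). DIP5, which takes up glutamate and aspartate, gave 2411 and 2102 in NBRC1950, against 2854 and 3121 in X2180. It was lower by limma at -0.41 ± 0.09 (SE; adjusted p = 0.00714), but its value was 0.16 under scaling to all probe sets. Leaving out X2180 replicate 2 ended the call (adjusted p = 0.0772), as did omitting the scaling.

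All 4 permeases for sulfur-containing compounds were higher in NBRC1950, with a median of 0.51 on the log2 scale. Over all genes tested, 20.3% were higher and the median was -0.05. MMP1, which imports S-methylmethionine, gave 1944 and 1935 in NBRC1950, against 992 and 1055 in X2180. The duplicates of each strain were close and the strains well apart, at 0.92 ± 0.07 (SE; limma adjusted p = 5.50e-05). MUP3, a low-affinity methionine permease, had 587 and 729 in NBRC1950, against 435 and 402 in X2180, a difference of 0.65 (adjusted p = 0.00384). MUP1, the high-affinity methionine permease, gave 3268 and 3356 in NBRC1950, against 2580.4 and 2518 in X2180, or 0.38 (adjusted p = 0.00224). SAM3, which imports S-adenosylmethionine, had the smallest difference of the 4, 0.27 (adjusted p = 0.0132), with 2110.5 and 2106 in NBRC1950 and 1711 and 1798 in X2180. The call of SAM3 was lost without NBRC1950 replicate 1 (0.0665) or replicate 2 (0.0637) and with no further scaling (0.0703), and that of MUP3 without X2180 replicate 2 (0.0646). The 4 kept their sign under all 4 scalings.

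**Figure D2:**
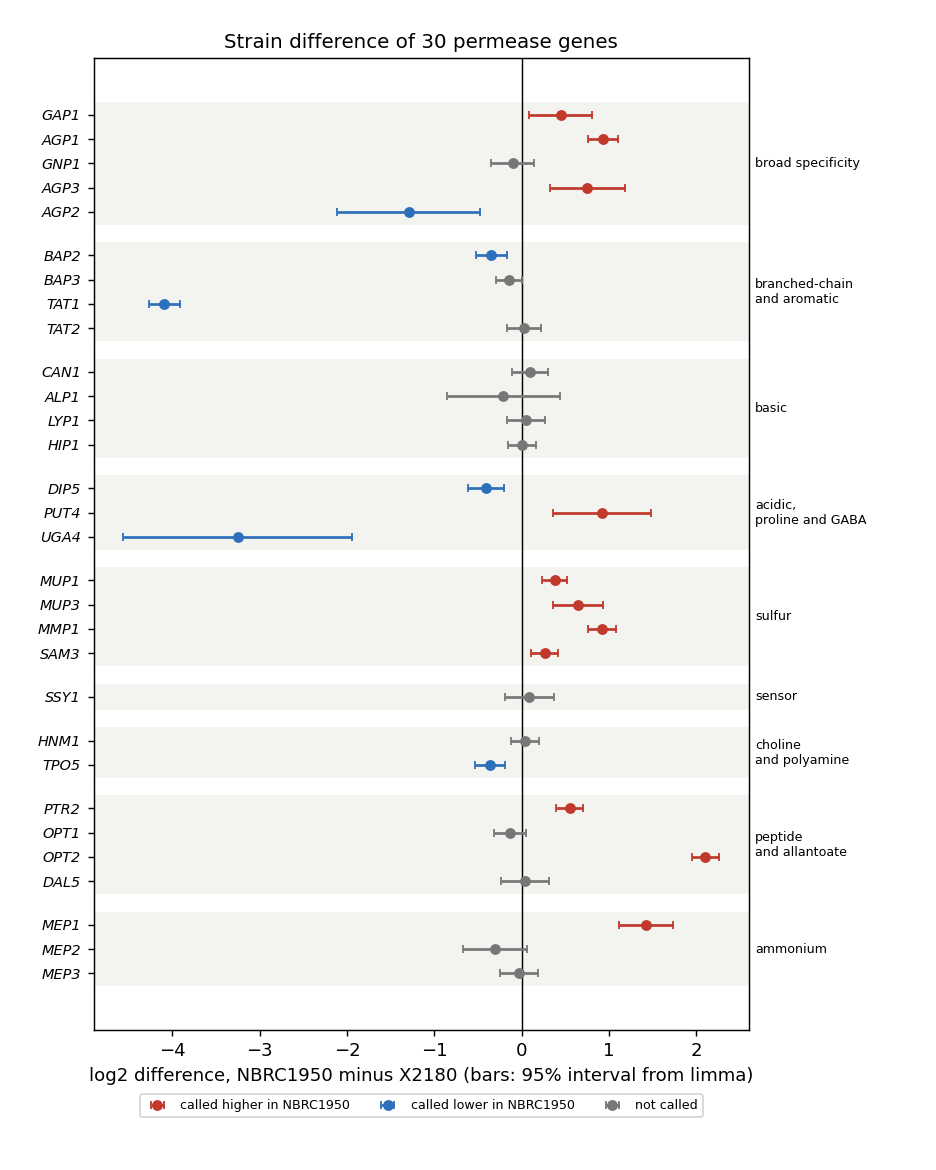
Log2 difference between the strains (x axis, NBRC1950 minus X2180) for the 30 genes, with 95% intervals from limma, coloured by call and grouped by substrate. TAT1 at -4.09 and OPT2 at 2.10 are the extremes, the 4 sulfur permeases all lie to the right of 0, and the 4 basic amino acid permeases all have intervals that include 0.

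MMP1 and SAM3 each lie beside the gene for an enzyme that uses their substrate, and these neighbours went different ways. MHT1, the S-methylmethionine-homocysteine methyltransferase next to MMP1, was higher in NBRC1950, at 0.59 (limma adjusted p = 0.00103), with 970 and 1046 in NBRC1950 and 645 and 691 in X2180. SAM4, the S-adenosylmethionine-homocysteine methyltransferase next to SAM3, was lower, at -0.76 (adjusted p = 8.66e-05), with 3835 and 3696 in NBRC1950 and 6271 and 6447 in X2180. SAM3 and SAM4, side by side on chromosome XVI, thus differed between the strains in opposite directions. These neighbours were chosen after their values were seen.

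Of the peptide and allantoate transporters, OPT2 and PTR2 were higher and OPT1 and DAL5 did not pass. All 4 were called higher under scaling to all probe sets, which called 83.3% of all genes, 92.8% of those higher. OPT2, a member of the oligopeptide transporter family that has also been linked to glutathione balance and membrane lipid asymmetry, gave 4027 and 4282 in NBRC1950, against 961 and 973 in X2180. The duplicates were close and the strains far apart, at 2.10 ± 0.07 (SE; limma adjusted p = 6.80e-07), a fold of 4.30. It ranked 27 from the highest of all genes tested. OPT1, a transporter of glutathione and oligopeptides from the same family, had 1277 and 1172 in NBRC1950, against 1392 and 1299 in X2180, and was at -0.14 (95% interval -0.32 to 0.05).

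PTR2, the main importer of di- and tripeptides, gave 1971 and 1971 in NBRC1950, against 1341 and 1353 in X2180. The difference of 0.55 ± 0.06 (SE; limma adjusted p = 0.000436) was as large with any 1 array left out (0.54 to 0.56). DAL5, the allantoate permease that also carries some dipeptides, had 233 and 239 in NBRC1950, against 218 and 242 in X2180. Its arrays overlapped and its difference was 0.04 (95% interval -0.23 to 0.31).

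Of the 3 ammonium permeases only MEP1 passed the threshold, though MEP3 was also called higher (0.54) under scaling to all probe sets, and the differences between the 3 were not tested. MEP1 gave 952 and 874 in NBRC1950, against 387 and 299 in X2180. The difference of 1.42 ± 0.13 (SE; limma adjusted p = 0.000136) is a fold of 2.68, and it was 1.24 without X2180 replicate 2 and 1.61 without X2180 replicate 1. MEP3, its closest paralogue, had 1181 and 1397 in NBRC1950, against 1338 and 1288 in X2180, a difference of -0.03 (95% interval -0.25 to 0.19). MEP2, the permease of highest affinity and a sensor for filamentous growth at low ammonium, had 181 and 157 in NBRC1950, against 234 and 186 in X2180. It was at -0.30 (interval -0.67 to 0.06; adjusted p = 0.149), and its NBRC1950 arrays lay just below its X2180 arrays.

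The sensor SSY1 and the choline permease HNM1 did not pass, but both were called higher under scaling to all probe sets, at 0.66 and 0.61. SSY1 gave 358 and 358 in NBRC1950, against 306 and 370.4 in X2180, and was at 0.09 (95% interval -0.19 to 0.37). HNM1 gave 2350 and 2489 in NBRC1950, against 2393 and 2311 in X2180, and was at 0.04 (interval -0.12 to 0.20). TPO5 was lower at -0.36 (limma adjusted p = 0.00599), with 1285 and 1252 in NBRC1950 and 1558 and 1707 in X2180, but its value was 0.21 under scaling to all probe sets and its call ended when the scaling was omitted.

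**Figure D3:**
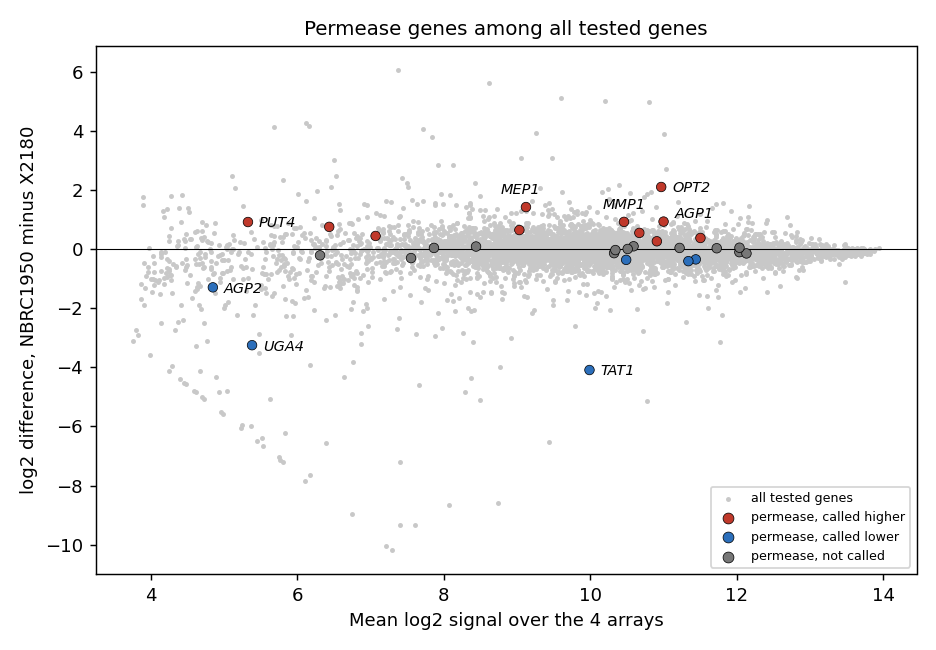
Log2 difference between the strains (y axis, NBRC1950 minus X2180) against the mean log2 signal over the 4 arrays (x axis) for all 5335 tested genes in grey, with the 30 permease genes coloured by call. TAT1 is a bright gene with a difference of -4.09 while UGA4 and AGP2 lie at the dim end, where the grey points scatter widely.

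Arranged by their regulator instead of their substrate, the permeases gave no common direction. Of 9 genes known to respond to the Ssy1 sensor, 3 were higher (AGP1, PTR2, MUP1), 3 lower (TAT1, DIP5, BAP2) and 3 did not pass, with a median of -0.10. Of 7 genes under nitrogen catabolite repression, 3 were higher (MEP1, PUT4, GAP1), 1 lower (UGA4) and 3 did not pass, with a median of 0.04. Over all genes the median was -0.05, with 20.3% higher and 26.8% lower. Under scaling to all probe sets, 7 of the 9 were called higher and 1 lower, and 5 of the 7 were called higher and 1 lower, with the median of all genes at 0.52. There 83.3% of all genes were called, 92.8% of those higher.

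**Figure D4:**
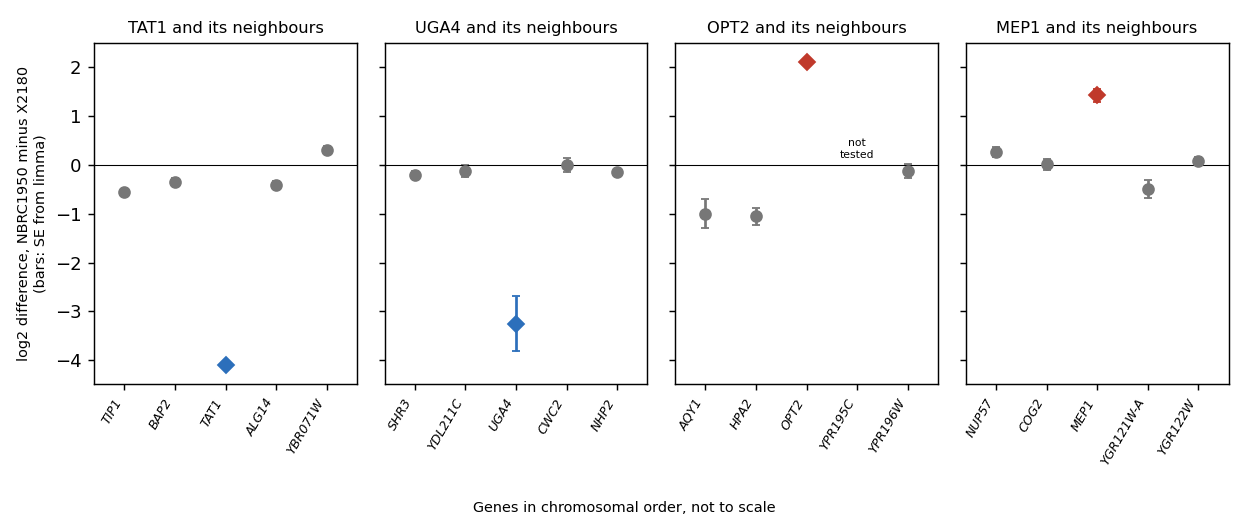
Log2 difference between the strains (y axis, NBRC1950 minus X2180, bars are SE from limma) for TAT1, UGA4, OPT2 and MEP1 and the 2 protein-coding genes on each side of them in reference order, not to scale. The neighbours of TAT1 lie between -0.55 and 0.31, the tested ones of OPT2 between -1.06 and -0.12, and none of the neighbours of UGA4 and MEP1 passed the threshold.

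The genes flanking the 4 permeases with the largest differences did not share them. These 4 were chosen after their values were seen. Some genes near other permeases, chosen likewise, differed strongly: HBN1 near AGP1 (3.09) and SIT1 near CAN1 (2.17) were higher. PGU1 beside DAL5 was at least 8.32-fold lower and AYT1 near MMP1 at least 13.4-fold lower. Around TAT1 on chromosome II, TIP1 (-0.55), BAP2 (-0.35) and ALG14 (-0.40) were lower and YBR071W (0.31) was higher in limma, all far from the -4.09 of TAT1 itself. Around UGA4 on chromosome IV, the differences of SHR3, YDL211C, CWC2 and NHP2 ranged from -0.20 to -0.002 and none passed. OPT2, the 10th protein-coding gene from a chromosome XVI end, was higher while HPA2 (-1.06) and AQY1 (-0.997) beside it were lower. Around MEP1 on chromosome VII none of 4 passed, with values from -0.49 to 0.26. MMP1, SAM3, OPT2 and DAL5, 4 of the 30 genes, were among the 10 outermost reading frames of a chromosome arm. MMP1, SAM3 and OPT2 were higher in NBRC1950, against 20.3% of all genes, but the call of SAM3 depended on single arrays and on the scaling. The share among all genes so placed was not computed. The arrays cannot tell a diverged or lost gene from one that is not transcribed.

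Regulators of permease transcription were called in both directions. Of 11 genes of Ssy1 signalling and of PTR2 control, 2 were higher and 2 lower, with a median of 0.03. Among all genes tested, 20.3% were higher and 26.8% lower. CUP9, the repressor of PTR2, was higher by 0.82 (limma adjusted p = 0.000104), with 2668 and 2793 in NBRC1950 and 1609 and 1481 in X2180. UBR1, the ubiquitin ligase that directs Cup9 to degradation, was higher by 0.58 (adjusted p = 0.000731). ASI1, an inner nuclear membrane protein that keeps unprocessed Stp1 and Stp2 from acting, was lower at -0.61, and DAL81, an activator shared by the Ssy1 pathway and the GABA genes, was lower at -0.62. Scaled to all probe sets, 9 of the 11 were called higher and 0 lower in limma. That scaling called 83.3% of all genes, and 92.8% of the called genes were higher. PTR3, SSY5, STP1 and STP2 did not pass, with differences from -0.18 to 0.06.

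Of 12 genes of GATA factors and nitrogen signalling, 11 were bright enough to be tested. Of these, 3 were higher and 1 lower, with a median of 0.06, against 20.3% and 26.8% of all genes. NPR2 and NPR3, partners in a complex that restrains the TORC1 kinase, were higher by 0.80 and 0.31, and the kinase gene TOR1 by 0.44. NPR2 is also the direct neighbour of CAN1. PUT3, the activator of proline use, was lower at -1.10 (limma adjusted p = 0.000672), with 205 and 206 in NBRC1950 and 502 and 385 in X2180. GLN3 (0.05) and GAT1 (-0.22), the activators of repressed permeases, did not pass, nor did URE2 (0.06), which holds Gln3 in the cytoplasm. Scaled to all probe sets, 10 of the 11 were called higher and 1 lower, while 83.3% of all genes were called, 92.8% of those higher.

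Of 16 genes for permease exit from the endoplasmic reticulum, ubiquitylation and arrestins, 3 were higher and 5 lower, with a median of -0.12. These counts lay near the shares over all genes, 20.3% higher and 26.8% lower. RSP5, the ubiquitin ligase that marks permeases for endocytosis, was higher by 0.40 and NPR1, a kinase that stabilises permeases such as Gap1, by 0.42. ECM21 and BUL2, adaptors that bring Rsp5 to its targets, were lower at -0.57 and -1.01. Scaled to all probe sets, 11 of the 16 were called higher and 1 lower, while 83.3% of all genes were called, 92.8% of those higher. The number called lower was 2 without X2180 replicate 1, 0 without X2180 replicate 2, 2 without NBRC1950 replicate 1 and 3 without NBRC1950 replicate 2.

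Of 14 tested transporters of the vacuole, where yeast stores amino acids, 8 were lower and 1 higher, with a median of -0.32. All genes had a median of -0.05, with 26.8% lower and 20.3% higher. But with scaling to all probe sets 7 of the 14 were higher and 2 lower, with a median of 0.25 against 0.52 for all genes. There 83.3% of all genes were called, 92.8% of those higher. AVT7 was lower at -1.02 (limma adjusted p = 3.99e-05), with 1466 and 1537 in NBRC1950 and 2912 and 3177 in X2180. RTC2 and YPQ1, relatives involved in basic amino acid transport, were lower at -1.79 and -0.59, and VBA1 at -0.48. The single higher member, VBA3, was not above background on either X2180 array and was at least 1.99-fold higher. With no further scaling 2 were lower and 1 higher, and the lower count without X2180 replicate 2 was 5.

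Of 13 further permeases for nitrogen-containing solutes, 1 was higher and 4 lower, with a median of -0.19. For all genes the shares were 20.3% higher and 26.8% lower. ATO3, linked to ammonium export, was lower at -0.63 and THI7, the thiamine permease, at -0.61. FCY22, of the purine and cytosine permease family, was higher by 0.80. DAL4, the allantoin permease, was not above background on either NBRC1950 array and at least 3.12-fold lower (limma adjusted p = 0.00136). The urea permease DUR3, which is under nitrogen catabolite repression like DAL5, was at -0.08 and did not pass. Scaled to all probe sets, 7 of the 13 were called higher and 1 lower, and after quantile normalization 3 were higher and 4 lower. These settings called 83.3% and 46.7% of all genes, and 92.8% and 52.0% of the called genes were higher.

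Markers of culture state moved with the strains in part, and their part in the permease differences was not tested. Of 12 genes that rise after glucose is used up or on starvation, 4 were higher in NBRC1950 and 1 lower. The shares over all genes were 20.3% and 26.8%. The 12 had a median of 0.32. The balance was 10 higher and 0 lower under scaling to all probe sets, 6 and 0 with no further scaling, and 5 and 0 after quantile normalization, which gave a median of 0.86. In that order these settings called 83.3%, 24.7% and 46.7% of all genes. Of the called genes, 92.8%, 70.5% and 52.0% were higher. The number higher was 2 without X2180 replicate 2. HSP26, a small heat shock protein, was higher by 2.85, MLS1 by 2.33, ICL1 by 1.13 and FBP1 by 0.90. The NBRC1950 duplicates of MLS1 stood apart, at 75.6 and 207, against 21.1 and 29.3 in X2180. Those of JEN1 (72.6 and 159) and HSP12 (67.8 and 180) did too, and ADH2 (127 and 58.8) went the other way. The summed signal of the 12 was 2254 and 2737 on the NBRC1950 arrays, against 1642 and 1564 on the X2180 arrays. HSP26 alone gave 649 and 652 of these sums in NBRC1950, against 79.5 and 102 in X2180. JEN1, HSP12, ADH2, PCK1, ACS1, SPG1 and SSA3 did not pass. SPG4, the lower one, was not above background in NBRC1950. Of 13 tested haploid markers, 7 were lower and STE18 was at least 1.61-fold higher, against 26.8% lower and 20.3% higher over all genes. STE3, called lower, was not above background on either NBRC1950 array, nor STE18 on either X2180 array. Each of these passed the filter only through the other strain. STE5, MFA1, MF(ALPHA)2, HO and FUS3 did not pass the threshold, and HO and FUS3 were above background on only 1 array of each strain. Ploidy and mating type were not tested. The summed signal of the markers was 781 and 767 in NBRC1950, against 1163 and 1315 in X2180. This balance too moved with the scaling: 4 of 12 tested were higher and 3 lower under scaling to all probe sets, 1 and 3 of 14 with no further scaling, and 3 and 3 of 14 after quantile normalization, with a median of -0.17, against -0.76 in the scaling used for the other values.

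**Figure D5:**
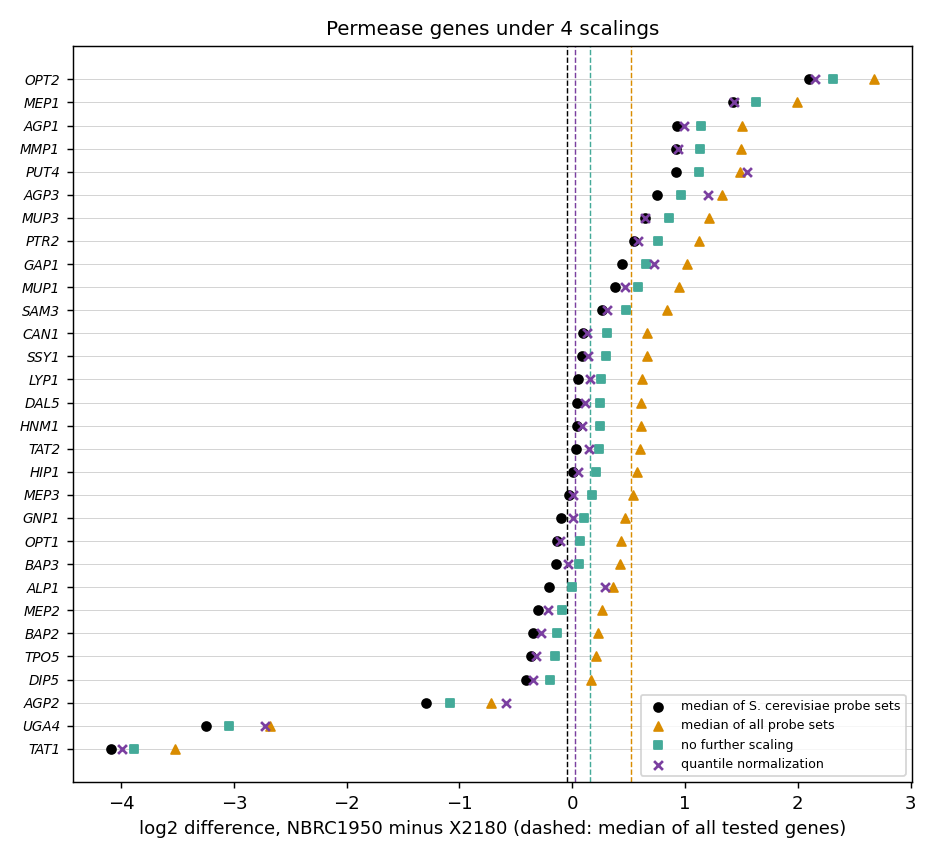
Log2 difference between the strains (x axis, NBRC1950 minus X2180) of the 30 genes under 4 scalings of the arrays (symbols), with the median of all tested genes under each scaling as a dashed line. TAT1, UGA4 and AGP2 lie left of 0 under each and the 11 genes called higher lie right of 0 under each, while BAP2, DIP5 and TPO5 lie right of 0 only with scaling to all probe sets (triangles).

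AGP1, TAT1, MUP1, MMP1, PTR2, OPT2 and MEP1, 7 of the 17 called, were called in the same direction under each of 13 limma alternatives. The methods' t-test is not among the 13, and in it AGP1 (adjusted p = 0.0504) and MEP1 (0.0776) were not called. Of the 17, 14 kept their sign under all 13, and BAP2, DIP5 and TPO5 turned positive with scaling to all probe sets. Measured from the median of all genes under each scaling, those 3 stayed below it in each, at -0.30, -0.36 and -0.32 with the scaling used here. On the same measure only ALP1 and MEP3, neither of them called, changed side between the scalings.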

How the data were processed

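Per the labels' protocols, poly(A) RNA was labelled and hybridised to 1-colour Affymetrix arrays. The authors deposited 1 linear intensity per probe set and array. The submitters' processing notes name GCOS, while its version and any probe masking are not given in the sources used here. Medians of the deposited intensities over the S. cerevisiae probe sets ran from 894 to 1171. Whether the per-chip normalization described for later analysis had been applied to all probe sets cannot be told from these.

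Of 10928 probe sets, 5498 named 1 S. cerevisiae gene, 213 were controls and 5217 measured background. Intensities were scaled per array to a common median over the 5498, floored at the median background (4.57) and converted to log2. Probe sets with a mean above 16.2, the 90th percentile of background, were tested (5377, for 5335 genes), and the brightest stood for a gene. Strains were fitted in limma 3.58.1 under R 4.3.3, using lmFit and eBayes with an intensity trend, no covariates and 2 residual degrees of freedom. P-values were adjusted by Benjamini-Hochberg over all tested probe sets, and positive values mean higher in NBRC1950. On simulated data with 5377 probe sets, 50 of 66 changed by 0.5 and 67 of 67 changed by 1 on the log2 scale were called. The simulated spread did not depend on brightness, and few probe sets were changed. These rates therefore do not cover dim genes such as UGA4 (SE 0.56) and AGP2 (SE 0.35). A gene below the background limit on both arrays of a strain is given as a bound ("at least N-fold").

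All 30 permeases are named, with up to 4 genes of smallest adjusted p from each comparison list. Others were named after their values were seen. The members and lists were chosen with earlier results of these data known. Promoter and protein sequences were not used here. Replicate numbers were not taken as pairs, since there are only 2 and deviations of same-numbered arrays correlated at 0.0735. Alternatives covered scaling, floor, filter, variance model, several probe sets a gene, a replicate block, the methods' t-test and leaving out each array.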

Additional observations from a re-analysis of the deposited data

How the results depend on the processing

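Counts of called permeases were within 1.5 times of the 17 reported (11 higher, 6 lower) for the floor at 1, both other filters, eBayes without trend and the mean of a gene's probe sets. With the replicate block, 16 were called, GAP1 being lost, and no other permease call changed. With 1 array left out, 11 to 14 were called (8 to 10 higher, 3 to 6 lower), with 1867 to 2063 genes (767 to 929 higher, 1036 to 1227 lower) and 21 to 26 list members. The 11 came without X2180 replicate 2, and 3 were lower without either X2180 array. Scaled to all probe sets, 26 permeases (23 higher, 3 lower), 4432 genes (4112 higher, 320 lower) and 49 members of the comparison lists were called, against 2517 genes (1085 higher, 1432 lower) and 30 list members in the scaling used, so 92.8% and not 43.1% of called genes were higher. Unscaled, 13 permeases (3 lower), 1317 genes (389 lower, 70.5% of the calls higher) and 15 list members were called. After quantile normalization 52.0% of called genes were higher. The methods' t-test gave 5 permeases (4 higher, 1 lower), 534 genes (220 higher, 314 lower) and 5 list members after Benjamini-Hochberg adjustment, and 3 lower permeases among 12 at an unadjusted p under 0.05. Permeases called and at least 2-fold apart, 5 in the scaling used, numbered 11 scaled to all probe sets, 8 unscaled, 2 and 3 in the methods' t-test with and without adjustment, and 3 to 6 with 1 array left out. Scaling to all probe sets, or omitting the scaling, changes each array by 1 factor. It therefore moves the log2 differences of all genes alike, apart from floored signals. The cause of the other shifts was not tested.

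Signs turned for these permeases, of which BAP2, DIP5 and TPO5 were called in the scaling used. Scaled to all probe sets, the log2 difference was 0.22 for BAP2, 0.16 for DIP5, 0.21 for TPO5, 0.47 for GNP1, 0.43 for BAP3, 0.36 for ALP1, 0.44 for OPT1, 0.27 for MEP2 and 0.54 for MEP3, a shift set by the scaling itself. Unscaled, it was 0.11 for GNP1, 0.063 for BAP3, 0.073 for OPT1 and 0.18 for MEP3. After quantile normalization it was 0.0078 for GNP1, 0.29 for ALP1 and 0.0042 for MEP3. With 1 array left out the range crossed 0 for GNP1 (-0.27 to 0.061), TAT2 (-0.070 to 0.13), CAN1 (-0.016 to 0.21), ALP1 (-0.54 to 0.12), LYP1 (-0.089 to 0.18), HIP1 (-0.021 to 0.031), SSY1 (-0.050 to 0.23), HNM1 (-0.0012 to 0.082), DAL5 (-0.034 to 0.12) and MEP3 (-0.15 to 0.090). Signal near background limits UGA4, AGP2 and PUT4.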
